A study of Mus musculus with 204 samples.

Results

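The GDNF family receptors are the receptor tyrosine kinase gene Ret and the coreceptor genes Gfra1, Gfra2, Gfra3 and Gfra4. They were taken by name and are 5 of the 49492 gene rows of the series, read in every cell of the series. The cells came from mice named VGLUT2-tdTomato, in whose distal colon a red fluorescent protein reports Slc17a6, the gene of the vesicular glutamate transporter VGLUT2. The muscle layers with the myenteric plexus, the nerve network between them, were dissociated and cultured overnight, and red cells were picked by hand, 1 per tube, for sequencing of polyadenylated RNA on 3 plates of 66, 66 and 72 cells. All cells share this genotype, tissue and culture, and the labels name no age, treatment, animal or culture, so cells are not replicates, each plate counts as 1 sample, and no test was made. The plate is the only batch named in the sample titles. The column names mark plates 2 and 3 alike, and libraries of these plates are numbered in 1 series.

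Ligands of the GDNF family do not bind the RET kinase alone. Each binds a coreceptor that is held in the membrane by a lipid anchor, GDNF with GFRA1, neurturin with GFRA2, artemin with GFRA3 and persephin with GFRA4, and the complex then recruits and activates RET. In the gut this pathway is known for the migration, survival and growth of the neural crest cells that form the enteric nervous system, and in the adult for the upkeep of enteric neurons and their axons.

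A transcript counted as detected in a cell at 10 reads per 1000000 reads (CPM) or more, and a cell carried a list of marker genes where at least 50% of the list was detected. Intervals are exact Clopper-Pearson 95% intervals, which cover counting error only. Levels per length are in reads per kilobase and 1000000 reads (RPKM), and only these are compared between genes. Reads per cell ranged from 453224 to 14310758, with plate medians of 3445518, 4571452 and 4691020. The labels call every sample a neuron, but the pan-neuronal list of 13 genes, such as Elavl4, Tubb3 and Snap25, was carried by 75.5% of cells (69.0 to 81.2) and not by the other 50. The neuronal cells numbered 54, 45 and 55 on plates 1, 2 and 3. Of the 50 cells without it, 48 carried the list of a non-neuronal type, of which smooth muscle was the most frequent (34 cells), and Slc17a6 was detected in 0 of the 50 against 57.8% of the neuronal cells. Such a list was also carried by 58 neuronal cells, so results are given with and without those cells where it changes them.

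Ret was found mainly in the neuronal cells. It was detected in 77.3% of neuronal cells (69.8 to 83.6), all but 35, and in 2 of 50 other cells (4.00%, 0.488 to 13.7). In neuronal cells Ret ranged from 0 to 237 RPKM with a median of 26.1, and where detected the median was 42.1. In the other cells the median was 0.0962 RPKM. Cell 12 of plate 2, with 13.8 RPKM and the fibroblast list, and cell 21 of plate 3, with 5.53 RPKM and the smooth muscle list, were the only other cells with Ret, and they had 1 and 2 of the 13 neuronal genes. By plate, 42 of 54, 31 of 45 and 46 of 55 neuronal cells had Ret.

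Gfra1, Gfra2 and Gfra4 were not limited to the neuronal cells in this way. Gfra1 was detected in 37 neuronal cells (24.0%, 17.5 to 31.6) and in 14 of 50 other cells (28.0%, 16.2 to 42.5). Gfra2 was detected in 61 neuronal cells (39.6%, 31.8 to 47.8) and 12 other cells (24.0%, 13.1 to 38.2). For Gfra4 the counts were 67 neuronal cells (43.5%, 35.5 to 51.7) and 11 other cells (22.0%, 11.5 to 36.0). Among neuronal cells with the transcript, the median per length was 11.3 RPKM for Gfra1, 25.5 for Gfra2 and 17.4 for Gfra4, all below the 42.1 RPKM of Ret. The ranges overlapped, from 1.97 to 50.3 RPKM for Gfra1, 3.66 to 152.9 for Gfra2, 4.62 to 125.1 for Gfra4 and 1.50 to 237 for Ret. Gfra3, the artemin coreceptor, was below the threshold in every cell, and a limit of 3 cells in the series puts the share at up to 1.47%. Its only reads were 7 in cell 52 of plate 3, a neuronal cell with Nos1 (0.692 RPKM). The list of extrinsic sensory neuron genes, where Gfra3 is known to be expressed, was carried by 2 cells, and both were at 0 for Gfra3.

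As a measure of difference, the log2 ratio of mean CPM plus 1 was taken within each plate, and a gene was called where it differed by at least 2-fold in the same direction on every plate with at least 5 cells of each kind. Between neuronal and other cells 16.8% of 13300 genes were called higher in neuronal cells and 5.58% lower. Of the 4 members with a mean of 5 CPM or more, Ret alone was called, with log2 ratios of 6.99, 4.90 and 6.09 on plates 1, 2 and 3 (6.67 on plate 2 without cell 12). Gfra2 had ratios of 2.41, 0.87 and 2.43. Gfra1 had 2.43, −0.82 and −1.50 and Gfra4 had 2.65, −1.23 and −2.45, so their direction differed between plates. The median over all genes tested was 0.33. Without the 23 cells that carried the enteric glia list, Gfra2 was also called higher in neuronal cells, at 3.06, 2.74 and 2.97. Gfra1 then had −0.37, 0.35 and −0.81, so its plate 1 value of 2.43 rested on cells with that list. Gfra4 had 4.88, −1.48 and −2.68. Without neuronal cells that carried a non-neuronal list, Gfra2 was again called higher, at 2.60, 1.21 and 2.41. Gfra1 then had −0.02, −0.79 and −1.61.

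Neuronal cells were then split by Chat, which encodes the enzyme that makes acetylcholine, and Nos1, which encodes neuronal nitric oxide synthase. Chat without Nos1 was found in 56 cells, Nos1 without Chat in 30, both in 50 and neither in 18. The classes differed in depth, with median reads of 4181972, 6261658, 4254758 and 1251214. Plate 1 held only 3 of the Nos1-only cells, so ratios between Chat-only and Nos1-only cells come from plates 2 and 3. The libraries of these plates are numbered in 1 series, so the plates may not be separate batches.

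**Figure D1:**
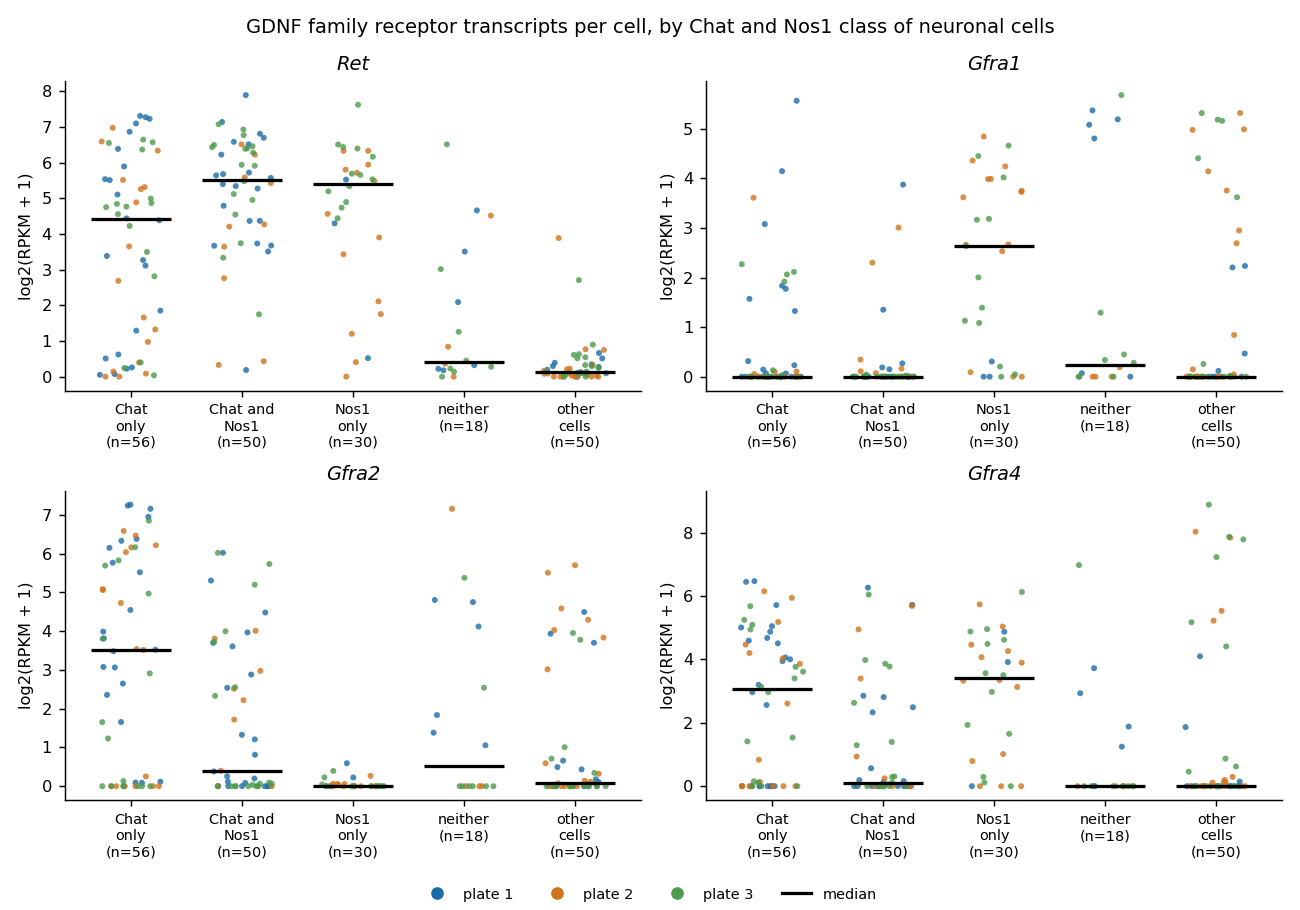
Each point is 1 cell, coloured by plate; the y axis is log2(RPKM + 1) of the gene named above each panel, and the bar is the median of the class. Ret is high in all 3 classes with Chat or Nos1, Gfra1 points gather in Nos1-only cells, Gfra2 in that class stays at or under 0.506 RPKM, and Gfra4 reaches 473 RPKM among the other cells.

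Ret was found across the transmitter classes. It was detected in 47 of 50 cells with Chat and Nos1, 26 of 30 Nos1-only cells, 40 of 56 Chat-only cells and 6 of 18 cells with neither. The medians per length were 45.1, 41.7, 20.3 and 0.324 RPKM in the same order, with ranges of 0 to 196 RPKM in Nos1-only and 0 to 158 RPKM in Chat-only cells, so the classes overlapped widely. The ratio of Ret in Chat-only over Nos1-only cells was −0.12 on plate 2 and −0.84 on plate 3 (log2), which was not called. In neuronal cells with no non-neuronal list, Ret was detected in 22 of 22 Nos1-only cells, 35 of 35 cells with both and 24 of 36 Chat-only cells. Every Nos1 cell of this kind thus had Ret, on counts of 22 and 35 cells.

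Gfra1, the GDNF coreceptor, was most frequent beside Nos1 without Chat. There it was detected in 18 of 30 cells, against 11 of 56 Chat-only cells, 3 of 50 cells with both and 5 of 18 with neither. In Nos1-only cells Gfra1 ranged from 0 to 27.7 RPKM with a median of 5.26, and in Chat-only cells from 0 to 46.4 with a median of 0. The plates differed: the Nos1-only cells with Gfra1 were 0 of 3, 11 of 14 and 7 of 13, and the Chat-only cells 6 of 23, 1 of 17 and 4 of 16.

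In Chat-only against Nos1-only cells, 5.28% of 13199 genes were called higher and 2.72% lower, and Gfra1 was among the latter. Its mean level was 3.67 CPM against 57.3 CPM on plate 2 and 4.53 against 37.4 CPM on plate 3, log2 ratios of −3.64 and −2.80. With each cell left out in turn they stayed between −5.78 and −3.45 and between −3.12 and −2.46. The value of −5.78 is that without cell 50 of plate 2, which held the only detected Gfra1 of its class there (11.2 RPKM). Without cells that carried a non-neuronal list the ratios were −3.02 and −3.06.

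Gfra2, the neurturin coreceptor, had the opposite pattern. It was detected in 35 of 56 Chat-only cells, 20 of 50 cells with both, 6 of 18 with neither and 0 of 30 Nos1-only cells. Chat-only cells ranged from 0 to 152.9 RPKM with a median of 10.5 RPKM. The highest Nos1-only cell reached 0.506 RPKM, and the Chat-only cells without detected Gfra2 overlapped this class. By plate, 18 of 23, 10 of 17 and 7 of 16 Chat-only cells had Gfra2. With every cell thinned to 450000 reads, 60.3% of Chat-only cells had Gfra2, which was found in 0% of Nos1-only cells, of which 58.6% had Gfra1. The log2 ratios of 6.57 and 6.06 on plates 2 and 3 were called higher in Chat-only cells, and depend on the added 1 CPM because the Nos1-only means were 0.0878 and 0.137 CPM.

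Gfra4 did not separate these classes. It was detected in 32 of 56 Chat-only cells and 19 of 30 Nos1-only cells, with medians of 7.31 and 9.78 RPKM and log2 ratios of 0.12 and −0.32. It was less frequent in cells with both Chat and Nos1 (13 of 50) and with neither (3 of 18). The persephin coreceptor was thus found beside Gfra1 in some cells and beside Gfra2 in others.

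Splitting all neuronal cells by Chat alone, 2.43% of 13077 genes were called higher with Chat and 0.818% lower. Gfra2 was called higher, with log2 ratios of 1.61, 1.33 and 2.69 on plates 1, 2 and 3. Cell 9 of plate 2, with 141.8 RPKM of Gfra2, the glial list and neither Chat nor Nos1, held the plate 2 value down, which was 6.06 without it. The plate 3 value was 4.85 without cell 50 of that plate, which also had neither Chat nor Nos1. Gfra1 was called lower, at −2.73, −3.01 and −3.59, but on plate 1 this rested on cells that carried the glial list. Without them Gfra1 had ratios of 1.70, −3.06 and −3.02, and the call was lost.

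Splitting by Nos1 alone, 0.581% of 13077 genes were called higher with Nos1 and 0.986% lower. Gfra2 was called lower, at −2.33, −3.81 and −1.38. Leaving out single cells moved the plate 3 value between −1.90 and −0.95, and the call ended there without cell 60 of that plate (−0.95). Without cells of a non-neuronal list it was −3.91, −4.60 and −2.56. Gfra1 gave −3.22, 3.21 and 0.06, a different direction on plates 1 and 2. Leaving out 1 cell moved its plate 3 value up to 1.83. Without cells of the glial list Gfra1 had −2.14, 3.10 and 1.78, and without cells of a non-neuronal list −2.26, 2.36 and 2.25. Ret, at 0.52, 0.37 and 1.19 with Nos1 and 2.17, 0.22 and 0.19 with Chat, was called in neither split.

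Tac1 encodes the precursor of substance P, a transmitter of excitatory motor neurons of the gut. With Tac1 at 10 CPM, 0.925% of 13077 genes were called higher in the 48 cells with it and 1.27% lower. Gfra2 was called higher, with log2 ratios of 2.92, 2.16 and 2.26 on plates 1, 2 and 3. The plate 2 value was 3.47 without cell 9 of that plate. Gfra4 had 3.42, 0.89 and −0.31, Ret −1.88, 0.28 and −1.75 and Gfra1 0.15, −0.06 and −2.79, and none of these was called. Without cells that carried a non-neuronal list, Ret had −1.83, −0.34 and −1.68, lower with Tac1 on each plate. Gfra1 then had −1.37, 0.07 and −2.51 and Gfra4 3.69, 0.54 and 0.04, and again none was called.

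Because reads misassigned between wells of a plate could reach an estimated 18.3 CPM of Tac1 in a shallow cell, a limit of 100 CPM was added after these values were seen. The 33 neuronal cells above it had Gfra2 in 27 (81.8%, 64.5 to 93.02), against 34 of the cells below it (28.1%, 20.3 to 37.0). Ret was detected in 14 of the 33 (42.4%, 25.5 to 60.8) and in 86.8% of the rest (79.4 to 92.2). On plates 1, 2 and 3, Ret was found in 7 of 17, 2 of 8 and 5 of 8 cells with high Tac1 and in 35 of 37, 29 of 37 and 41 of 47 others. High-Tac1 cells thus had Ret less often on each plate.

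Per length, Ret in the 33 cells ranged from 0 to 92.8 RPKM with a median of 0.538, against a median of 39.5 in the rest. Gfra2 ranged from 0 to 152.9 RPKM with a median of 53.5, against 0.0392. Gfra4 was detected in 23 of the 33 cells (69.7%) and 44 of the rest (36.4%). Of the 33 cells, 29 had Chat and 4 had Nos1. Median reads were 3490599 and 4469935.

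**Figure D2:**
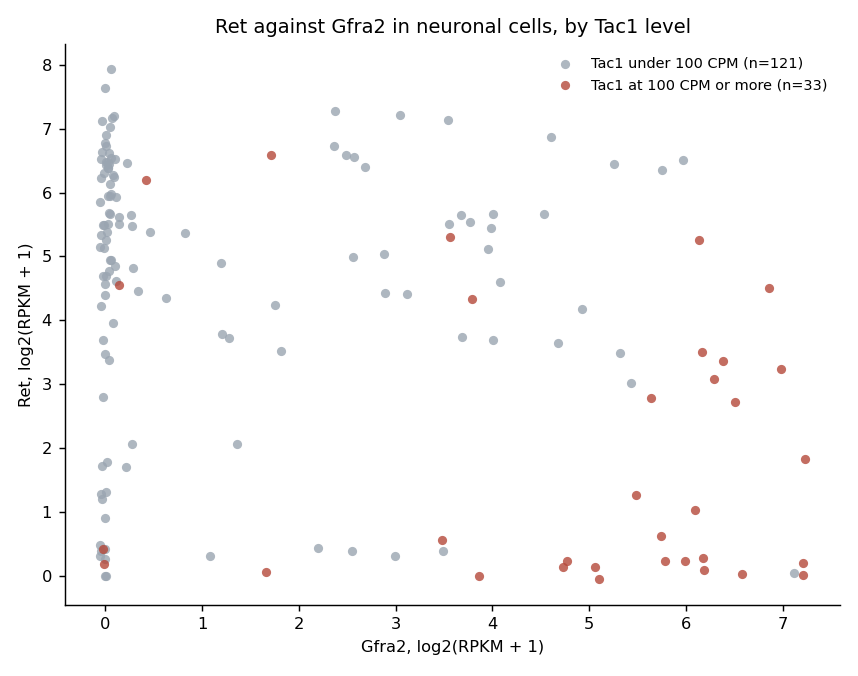
Each point is 1 neuronal cell, with Gfra2 on the x axis and Ret on the y axis, both as log2(RPKM + 1), and red points are the 33 cells with Tac1 at 100 CPM or more. The red points lie mostly to the right, where 16 of them have Gfra2 without Ret at the 10 CPM threshold, and the grey points mostly at the upper left.

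A coreceptor at 10 CPM accompanied Ret in 75 neuronal cells (63.0% of those with Ret, 53.7 to 71.7). Gfra1 without Gfra2 was found in 22 of them, Gfra2 without Gfra1 in 34 and both in 6. Gfra4 was present in 51, in 13 of them as the only coreceptor. The other 44 cells (37.0%, 28.3 to 46.3) had Ret with no coreceptor, and the counts by plate were 16 of 42, 12 of 31 and 16 of 46 cells.

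Gfra1 and Gfra2 met in 6 Ret cells (5.04%, 1.87 to 10.7), and the product of their single shares was 7.91%. Of the 6 cells 5 were on plate 1, where the share was 11.9% beside a product of 7.94%. On plates 2 and 3 the shares were 3.23% and 0%, beside products of 8.01% and 6.14%. All 6 also had Gfra4. Gfra4 was carried by 17 of the 22 Ret cells with Gfra1 alone of the pair and by 15 of the 34 with Gfra2 alone of the pair.

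Among the 86 neuronal cells with Gfra1 or Gfra2, the log2 ratio of Gfra1 to Gfra2 per length, with 0.1 RPKM added to each, ran from −10.55 to 8.12. Gfra1 exceeded Gfra2 by a log2 of 3 or more in 25 cells, and Gfra2 exceeded Gfra1 by as much in 50. The remaining 11 cells lay between, 7 of them on plate 1. Of these 7, 6 carried the glial list, such as cell 39 of plate 1 with 40.4 RPKM of Gfra1 and 25.9 RPKM of Gfra2. The other 5 of the 11 did not, such as cell 49 of plate 2 with 7.04 and 13.0 RPKM and 47.0 RPKM of Ret.

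The classes differed in which coreceptor went with Ret. Of 30 Nos1-only cells, 16 had Ret with Gfra1 (53.3%, 34.3 to 71.7), 3 had Ret with Gfra4 alone and 7 had Ret with no coreceptor. Of 56 Chat-only cells, 17 had Ret with Gfra2 (30.4%, 18.8 to 44.1), 4 with Gfra1, 4 with both, 5 with Gfra4 alone and 10 with none. A further 14 Chat-only cells had Gfra2 without Ret. Of 50 cells with Chat and Nos1, 24 had Ret with no coreceptor (48.0%, 33.7 to 62.6), namely 12 of 22, 4 of 10 and 8 of 18 by plate, and 15 had Ret with Gfra2.

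**Figure D3:**
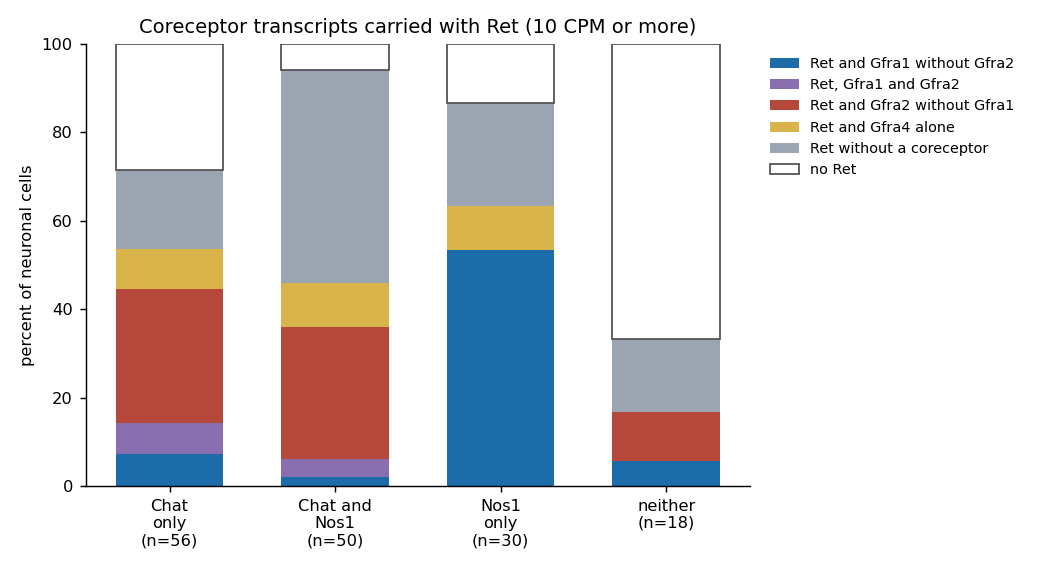
Bars give the percent of neuronal cells of each Chat and Nos1 class (x axis) that have Ret with each coreceptor at 10 CPM or more, and the white part has no Ret. Ret with Gfra1 takes 53.3% of Nos1-only cells, Ret with Gfra2 30.4% of Chat-only and 30.0% of cells with both, and Ret without a coreceptor 48.0% of cells with both.

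Groups made from the receptors themselves were looked at after these values were seen and are a description. The 22 cells with Ret and Gfra1 but not Gfra2 had medians of 69.7 RPKM of Nos1, 1283 of Gal and 67.5 of Vip, the genes of galanin and vasoactive intestinal peptide. Their median of Penk, the enkephalin precursor gene, was 6.62 RPKM, and Slc17a6 was detected in 3 of the 22. Penk reads misassigned between wells were estimated at medians of 29.8, 18.7 and 14.3 CPM per cell on plates 1, 2 and 3. Their part in this low Penk value was not tested. The 34 cells with Ret and Gfra2 but not Gfra1 had medians of 46.3 RPKM of Chat and 6743 of Penk, and 27 had Slc17a6. The 44 cells with Ret and no coreceptor had medians of 28.0 RPKM of Chat and 3861 of Penk, with Slc17a6 in 29. Their median depth was 3517502 reads, against 6979100 for Ret with Gfra1 and 4450176 for Ret with Gfra2. The part of depth in the coreceptors not detected was not tested. With each cell thinned to 450000 reads and the neuronal and Ret cells set anew, the share of all Ret cells with a coreceptor was 64.1%. Thinning cannot show transcripts that were missed before sequencing.

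In the 35 neuronal cells without Ret, Gfra2 was detected in 21 (60.0%, 42.1 to 76.1), Gfra4 in 16 and Gfra1 in 9, while 10 had no receptor of the family. High Tac1 was found in 19 of the 35 (54.3%) and in 14 of the cells with Ret (11.8%). Of the 35, 11 (31.4%) had under 11 of the 13 neuronal genes, against 3.36% of the cells with Ret. Neither Chat nor Nos1 was detected in 12 of the 35 (34.3%), against 5.04%. The cells without Ret had median reads of 2645888 against 4808359, and 22 of the 35 (62.9%) carried a non-neuronal list against 36 of those with Ret (30.3%). Among neuronal cells with no such list, 84.6% of those without Ret had Gfra2 (54.6 to 98.1). These cells are part of the 35, so this share and the 60.0% over all 35 are not separate values.

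The 21 cells with Gfra2 and no Ret had a median of 44.9 RPKM of Gfra2, 21.1 of Gfra4, 432 of Tac1 and 46.7 of Chat. The neurofilament gene Nefm had a median of 4.71 RPKM there, against 257 RPKM in the cells with Ret and Gfra2. Ret in them ran from 0 to 1.44 RPKM, with a median of 0.168 and an upper quartile of 0.351, so most lay well under the threshold that kept them out. Cell 64 of plate 1 had the highest Gfra2 of the series, 152.9 RPKM, with 0.0375 RPKM of Ret.

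Across neuronal cells the Spearman correlation of Ret with Gfra2 was −0.49 over 54 cells of plate 1, −0.37 over 45 of plate 2 and −0.18 over 55 of plate 3. Gfra1 and Gfra4 had 0.29, 0.30 and 0.23. Ret with Gfra4 gave −0.49, 0.04 and 0.09, and Ret with Gfra1 changed sign between plates. The cells of a plate share its processing and differ in depth, and the values are a description.

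Cells that carried the enteric glia list (genes such as Sox10, S100b and Gfap) had Gfra1 and Gfra2 more often than cells without it, and Ret in 7 of 23 (30.4%), all 7 of them neuronal. Over all cells, Gfra1 was detected in 18 of 23 with the list (78.3%, 56.3 to 92.5) and 33 cells without it (18.2%, 12.9 to 24.6). Gfra2 was detected in 15 of 23 (65.2%, 42.7 to 83.6) and 58 cells (32.0%, 25.3 to 39.4). In the 10 glial-list cells that were not neuronal, Gfra1 was found in 8, Gfra2 in 7 and Ret in 0. Of the 37 neuronal cells with Gfra1, 10 carried the glial list, and so did the 3 cells of the series with the most Gfra1, from 40.4 to 50.3 RPKM. Among neuronal cells without the list, Gfra1 was detected in 27 (19.1%, 13.0 to 26.6).

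Gfra4 was highest outside the neuronal cells. In the other cells it was detected in 11 of 34 that carried the smooth muscle list (Acta2, Tagln, Myh11, Des, Actg2 and Cnn1) and in 0 of 16 that did not. The median where detected was 149 RPKM, against 17.4 in neuronal cells. The highest values were 473 RPKM in cell 10 of plate 3, 261 RPKM in cell 63 of plate 2 and 233 RPKM in cell 45 of plate 3, each with under 1 RPKM of Ret. The first 2 of these cells also carried the fibroblast list, which includes Col1a1 and Dcn. Among the other cells Gfra4 was detected in 6 of 10 with that list (60.0%, 26.2 to 87.8) and 5 of 40 without it (12.5%, 4.19 to 26.8), and the parts of the 2 lists were not separated. In neuronal cells the share with Gfra4 was 34.1% of 41 with the smooth muscle list and 46.9% of those without it, so the share was not higher with the list there.

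**Figure D4:**
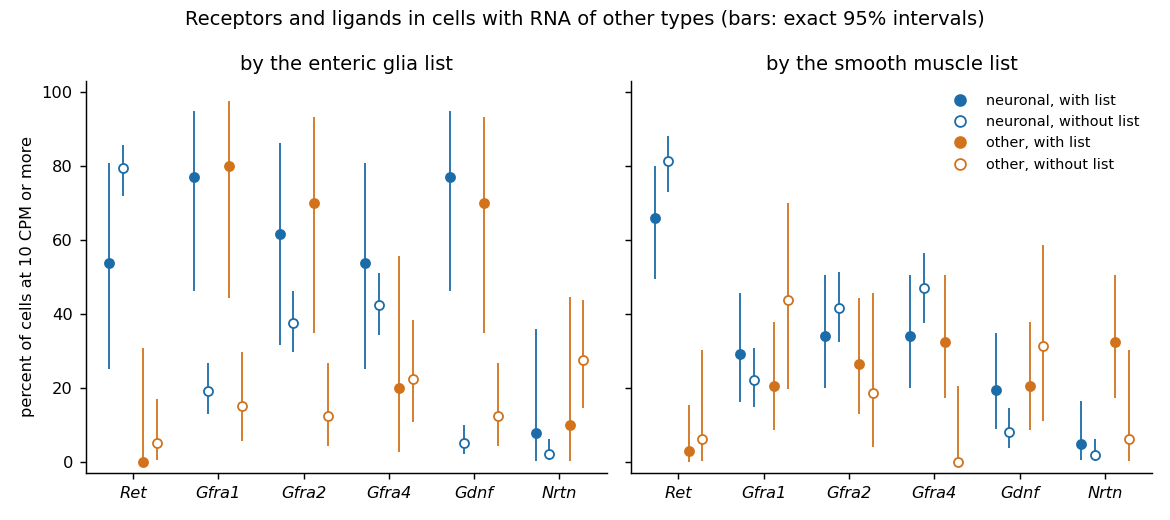
Points give the percent of cells at 10 CPM or more for each gene on the x axis, filled for cells that carry the list and open for those that do not, blue for neuronal and orange for other cells, with exact 95% intervals as bars. With the glial list (left) Gfra1 and Gdnf are detected in at least 70.0% of both kinds of cell, and with the smooth muscle list (right) Gfra4 and Nrtn are each detected in 32.4% of the other cells.

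Of the ligand genes, Gdnf, Nrtn, Artn and Pspn were each detected in at most 11.0% of neuronal cells, and Gdf15 in 23.4%. Gdnf was detected in 17 neuronal cells (11.0%, 6.56 to 17.1) and 12 of 50 other cells (24.0%, 13.1 to 38.2). It went with the glial list, in 17 of 23 cells with the list (73.9%, 51.6 to 89.8) against 12 cells without (6.63%, 3.47 to 11.3), up to 220 RPKM. Nrtn, the neurturin gene, was detected in 4 neuronal and 12 other cells, 11 of the latter with the smooth muscle list. In other cells with the fibroblast list it was detected in 5 of 10 (50.0%, 18.7 to 81.3), against 7 of 40 without it (17.5%, 7.34 to 32.8). Artn, the artemin gene, was detected in 6 neuronal and 0 other cells, and Pspn, the persephin gene, in 1 and 2. Gdf15, whose receptor is GFRAL with RET, was detected in 36 neuronal and 20 other cells, and Gfral in 1 neuronal cell.

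The wider pathway was described with 47 genes in 6 lists, including the ligands above. Of other partners, Ncam1, a cell adhesion molecule that GDNF can signal through, was detected in 96.1% of neuronal cells and Sdc3, a proteoglycan that binds GDNF, in 87.7%, while Gas1, a relative of the coreceptors, was detected in 11.7%. Ncam1 was the 1 of 3 tested genes of its list called higher in neuronal cells. Of 17 adaptors and effectors downstream of Ret, 15 were tested and 1 was called, Pik3r1, a regulatory subunit of phosphoinositide 3-kinase. The list's median log2 ratio was 0.16, against 0.33 over all genes tested. Of all genes tested, 16.8% were called higher in neuronal cells and 5.58% lower. Grb2 was detected in 94.8% of neuronal cells, Ptpn11 in 87.7% and Pik3r1 in 87.01%.

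Among 10 feedback and ETV genes of the ERK pathway, Etv1, a transcription factor gene, was called higher in neuronal cells, with a list median of 0.68. The share of all tested genes called higher was 16.8%. Spred2 was detected in 80.5% of neuronal cells, Etv1 in 75.97% and Spry2 in 75.3%. Among transcription factor genes of the enteric neural crest, Phox2a, Hand2, Tlx2 and Tbx3 were called higher and Zeb2 lower. Hand2 was detected in 91.6% and Phox2a in 88.96% of neuronal cells. In the endothelin arm, Ece1 was detected in 89.6%, the receptor gene Ednrb in 7.79%, against 36.0% of other cells, and Edn3 in 0.

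Between Chat-only and Nos1-only cells few pathway genes moved with the coreceptors. Sdc3, Gab1, an adaptor gene, and Tlx2 were called higher in Chat-only cells, and Etv1 lower. That is 1 of 3 partners, 1 of 15 adaptors and 1 of 10 feedback and ETV genes, beside Tlx2 among the transcription factors. Over all 13199 genes tested, 5.28% were called higher and 2.72% lower, and counts this small cannot be told apart from those shares. The medians of the first 3 lists were 0.70, 0.10 and −0.09, beside 0.06 over all genes tested.

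Genes with the pattern most like each receptor were ranked by the smallest of the 3 plates' Spearman correlations over neuronal cells, out of 7309 candidates. For Ret they were Tnfrsf21 (0.62), Tnr (0.61), Lrrc3 (0.58), Ttl (0.58) and Adcyap1r1 (0.57). Tnr, the tenascin R gene, was detected in 68.1% of neuronal cells with Ret and 5.71% of those without, and Adcyap1r1, a receptor gene for the peptide PACAP, in 71.4% and 11.4%. For Gfra2 they were Cd109 (0.52), Ffar3 (0.48), Ntn1 (0.45), Fam19a1 (0.43) and Fam19a5 (0.43). Ffar3, a receptor gene for short-chain fatty acids, was detected in 49.2% of neuronal cells with Gfra2 and 2.15% of those without. For Gfra1 the values were lower, with Zeb2 (0.47), Utrn (0.42), Pxdc1 (0.41), S100a16 (0.41) and Fh1 (0.38). Of the 37 neuronal cells with Gfra1, 10 carried the enteric glia list, and no ranking was made without them. Zeb2 was detected in 83.8% of neuronal cells with Gfra1 and 30.8% of those without, and it was called lower in neuronal than in other cells. The shares of Tnr, Adcyap1r1, Ffar3 and Zeb2 come from the cells used for the ranking, so their differences follow from that choice.

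On the mm10 build, Ret lies on chromosome 6 from 118151745 to 118197718, Gfra1 on chromosome 19 from 58235604 to 58455909, Gfra2 on chromosome 14 from 70890120 to 70979838, Gfra4 on chromosome 2 from 131039632 to 131043088 and Gfra3 on chromosome 18. Gfra1 overlaps the antisense gene Gm16277, and without a stated strand setting their reads cannot be told apart. Gm16277 had a median of 5.62% as many reads as Gfra1 in the 37 neuronal cells with Gfra1. Gfra4 overlaps the microRNA gene Mir6973b. Near the threshold, 5 neuronal cells had Ret, 6 Gfra1, 6 Gfra2 and 3 Gfra4 between 5 and 10 CPM, and 5, 7, 8 and 15 cells between 10 and 20 CPM. The estimated reads misassigned between wells had a median of at most 1.24 CPM per cell for Ret and 0.285 CPM for Gfra2, and reached 10.0 CPM of Ret in 1 shallow cell of plate 2. The estimates rest on 2, 11 and 1 genes of plates 1, 2 and 3. For Nos1 they reached 10.8 CPM on plate 2, above the 10 CPM that set the Nos1 classes, and no higher limit was used for Nos1.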

How the data were processed

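The authors deposited 1 table of log2(RPKM + 1) values with 49492 gene rows and a column for each cell; the base and the added 1 follow from the values. The genome build is mm10, per the submitters' processing notes. No aligner, counter or strand setting is given in the sources used here. Per the labels' protocols the kit adds an index per well and per plate and no molecular identifier, and libraries of plates 2 and 3 are numbered in 1 series. The planned unit was CPM of read counts. Reads were therefore recovered from the log2 values with GENCODE M21 exon lengths for 31777 genes, lengths read from the values for 5858 and the annotation length for 434 genes seen in under 3 cells. Of 2375655 values above 0, 99.97575% were whole within 0.01 reads. On simulated data 99.991% of 288628 values over 25663 genes were recovered, to the printed precision.

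The members and lists were chosen with earlier results of these data known. Cells are not replicates, so nothing was tested. Ratios of mean CPM plus 1 were taken within plates for genes with a mean of 5 CPM or more. On simulated data for Chat-only against Nos1-only cells (13218 genes), 12% of 50 genes changed by a log2 of 1 were called. The share was 96% at 2 and 100% at 3 and 5, and 0.146% of unchanged genes were called. Simulated cells of a class shared 1 mean per gene, with no subsets of cells lacking a gene, RNA of other types or plate effect. The changed genes had a mean of 20 CPM or more. These shares are thus not error rates of the calls in the real cells. Named genes are the 5 members, the ligands, the 3 genes of each pathway list detected in most neuronal cells, and the 5 genes most like Ret, Gfra1 and Gfra2 (mean of 20 CPM or more, detected in 20% to 95% of neuronal cells). Other genes were named after their values were seen. Some genes of the lists are not reported here. No 2 cells of a plate agreed within sampling noise (6846 pairs, lowest chi-square per degree of freedom 5.51). No doublet caller was run. Misassigned reads were estimated from genes with 95% of a plate's reads in 1 cell. Alternatives were thresholds of 5 and 20 CPM and 1 RPKM, a minimum of 1% of the plate's highest count, a pseudocount of 10 CPM, thinning to 450000 reads, and leaving out each plate or cells with other lists. Neuronal status and classes were set anew under the other thresholds, the 1% minimum and thinning. Python 3.11.15, pandas 2.3.3 and scipy 1.17.1 were used.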

Additional observations from a re-analysis of the deposited data

How the results depend on the processing

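Of 110 values of the 10 main results under 13 other settings, 98 stayed within the interval or the spread over plates and 12 moved. Shares of cells cannot change sign. A change of sign was recorded only for log2 ratios that had been called, and 0 were found there. The spread over plates was wide for Ret with Tac1, so staying within it says little there. The share of neuronal cells with Ret was 86.5% without cells of a non-neuronal list, and with Gfra4 34.0% at 20 CPM. The share of Ret cells with both Gfra1 and Gfra2 was 1.30% without plate 1 and 1.79% without cells of the glial list. The mean log2 ratio of Gfra2 with Tac1 was 2.45, and was 3.22 with the 1% minimum, 3.52 without cells of a non-neuronal list, 3.09 with Tac1 at 100 CPM, 2.90 without the glial list and 2.90 without cells under 2000000 reads. Between Chat-only and Nos1-only cells the mean was 6.32 for Gfra2 and −3.22 for Gfra1; Gfra2 was 6.73 without cells of a non-neuronal list, and a pseudocount of 10 CPM gave 3.27 and −2.00, which follows from its construction. For the other moves the cause was not tested. The settings at 100 CPM, without the glial list and without cells under 2000000 reads were added after seeing the data.

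No paired analysis was possible because no result comes from a test and the cell numbers that plates share are only names; the ratios were taken within plates throughout. Depth limits what an absent coreceptor shows, since a transcript under 10 CPM in a shallow cell can rest on few reads, and reads without molecular identifiers are not independent molecules.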

Other observations

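The cells were picked by a reporter for Slc17a6, and the shares of neuronal cells with each receptor are given here with and without its transcript. Gfra1 was detected in 10 of 89 neuronal cells with Slc17a6 (11.2%, 5.52 to 19.7) and 27 of 65 without it (41.5%, 29.4 to 54.4), in that order 6 of 44 and 5 of 10 on plate 1, 2 of 20 and 12 of 25 on plate 2, and 2 of 25 and 10 of 30 on plate 3. Gfra2 was detected in 44 of 89 (49.4%, 38.7 to 60.2) and 17 of 65 (26.2%, 16.0 to 38.5), by plate 24 of 44 and 5 of 10, 9 of 20 and 7 of 25, and 11 of 25 and 5 of 30. Ret was detected in 75 of 89 (84.3%, 75.02 to 91.1) and 44 of 65 (67.7%, 54.9 to 78.8), with intervals that overlap, by plate 37 of 44 and 5 of 10, 14 of 20 and 17 of 25, and 24 of 25 and 22 of 30. Gfra4 was detected in 35 of 89 (39.3%, 29.1 to 50.3) and 32 of 65 (49.2%, 36.6 to 61.9). These splits share cells with those by Chat and Nos1, since Slc17a6 was detected in 3 of 30 Nos1-only cells and 43 of 50 cells with Chat and Nos1.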
